A study of Mus musculus with 4 samples.

Results

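Plod2 and 9 other genes whose products modify, cross-link or fold collagen were followed in B16-F10 cells, a mouse melanoma line, that had or had not left the vessels of zebrafish. The 10 genes were Plod1, Plod2, Plod3, P4ha1, P4ha2, P4hb, P3h1, Colgalt1, Serpinh1 and Loxl2, out of 53465 genes in the count table, and all 10 were among the 12320 genes with enough reads to be tested. Plod2 was selected on its fall in the extravasated libraries, so its difference between the groups is given as a description with no test. The other 9 were listed by function, with earlier results of these data known, and were tested in the fit across all genes.

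One group held 2 polyA RNA libraries of fluorescent B16-F10 cells labelled as extravasated, and the other held 2 libraries of cells labelled as not extravasated, which the series names as its control. No other genotype or treatment is given for either group: all libraries came from 1 cell line, infused into zebrafish, with IMDM and 10% FBS as the medium. The number in the library titles differs between the groups, and whatever it stands for cannot be told apart from extravasation. The growth text is the same for the 4 libraries and describes extravasated cells isolated from the fish and cultured, so the grouping rests on the extravasation label. Whether the libraries of a group were separate cultures is not given, and p-values therefore measure only the spread between these libraries, which may be technical.

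Collagen chains are hydroxylated on proline and lysine in the endoplasmic reticulum before the triple helix closes. Prolyl 4-hydroxylation stabilises the helix, and lysyl hydroxylation creates sites for sugars and for cross-links that lysyl oxidases later form outside the cell. The hydroxylases need oxygen, iron, 2-oxoglutarate and ascorbate, and in many tumour cells PLOD2, P4HA1, P4HA2 and LOXL2 are known targets of the hypoxia-inducible factors.

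The windows of 250 bases in front of the RefSeq starts of P4ha1 and P4ha2 are shown because these are the members other than Plod2 that were called lower below, and the known hypoxia response core ACGTG can be looked up in them. RefSeq windows (GRCm38.p6) matched 8 of the 10 genes, and Plod2 and Loxl2 had no entry. The P4ha1 window is chr10:59323046-59323295 and the P4ha2 window chr11:54100674-54100923, both on the plus strand. The P4ha2 window lies inside the GENCODE span of the gene, in front of a later start. Windows are printed with capitals marking the motifs ACGTG and GCGTG on either strand.
P4ha1: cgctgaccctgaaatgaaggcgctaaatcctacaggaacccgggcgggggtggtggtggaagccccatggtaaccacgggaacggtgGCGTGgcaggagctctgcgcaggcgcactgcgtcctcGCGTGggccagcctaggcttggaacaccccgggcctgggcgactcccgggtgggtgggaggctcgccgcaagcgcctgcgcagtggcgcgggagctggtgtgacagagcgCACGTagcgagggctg
P4ha2: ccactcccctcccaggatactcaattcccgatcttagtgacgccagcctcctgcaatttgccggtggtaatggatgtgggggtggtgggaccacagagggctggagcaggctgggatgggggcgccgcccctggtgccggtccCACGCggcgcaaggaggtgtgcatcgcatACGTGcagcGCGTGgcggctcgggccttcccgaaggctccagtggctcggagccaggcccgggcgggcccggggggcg
In P4ha1 the motif ACGTG began 16 bases before the start, on the reverse strand, and GCGTG began 163 and 126 bases before it. In P4ha2, ACGTG began 78 bases before the start and GCGTG 107 bases before it on the reverse strand and 69 bases before it on the forward strand. No match overlapped another in these windows. The motif ACGTG was also in a window of Plod3, P4hb, P3h1 and Serpinh1 and in none of the windows of Plod1 and Colgalt1. GCGTG was also in a window of Plod1, Plod3, P4hb, P3h1 and Colgalt1, and not in that of Serpinh1. Over 32851 windows of this length, 16.6% held ACGTG and 28.2% held GCGTG. A match is a description of the letters and not evidence of binding.

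Library totals were 11705904 to 19674733 counts, and levels are given as CPM (counts scaled to 1000000 per library after TMM scaling). Of 12320 genes tested with edgeR's quasi-likelihood test at an adjusted p under 0.05, 45.1% were called, 25.9% lower and 19.1% higher in extravasated cells. Fold changes followed the GC content of the transcripts across 11126 nuclear coding genes (Spearman rho 0.74, a description over genes of the same 4 libraries). With a correction that removes each library's trend with transcript GC content and length, 14.0% were called, 5.80% lower and 8.24% higher, and both values are given for each gene below. Melanocyte markers were present in all libraries, with a summed level of 24264 to 31895 CPM, but single markers differed between the groups. Before correction Mitf (-1.20) and Tyr (-0.60) were called lower, and Pmel (0.76), Sox10 (0.77) and Gpr143 (0.81) higher. After it Tyr (0.77), Mlana (0.76) and Gpr143 (0.73) were called higher and no marker lower. Of 8 fibroblast markers, Dcn, Lum and Thy1 were at 0 in every library, while the summed level was 201.4 and 206.6 CPM in non-extravasated and 240.9 and 264.1 CPM in extravasated libraries, most of it from Fbln1. Fbln1 rose (0.39, adjusted p = 0.0329), while Postn fell from 7.38 and 4.51 to 1.36 and 1.47 CPM (-2.04, adjusted p = 0.00516) and Pdgfra from 2.60 and 3.93 to 1.36 and 1.05 CPM (-1.46, adjusted p = 0.0221), and none of these 3 was called after correction. All 6 endothelial markers were under 1 CPM in every library, as were 5 of 6 leukocyte markers, and the part of other cells in the results was not tested.

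Among the lysyl hydroxylases, Plod2 was lower in the extravasated libraries while Plod1 and Plod3 rose. Plod2, which hydroxylates lysines of the collagen telopeptides and so sets the type of cross-link (chromosome 9, 92542223 to 92608428, plus strand), had 178.4 and 186.0 CPM in non-extravasated libraries and 48.9 and 50.2 CPM in extravasated ones. The libraries within a group were close, and the groups did not overlap. How many of all genes tested have groups without overlap was not counted. The difference of Plod2 was 3.67-fold, a log2 fold change of -1.88, and -0.89 after GC and length correction. Before correction it was the 435th lowest of the 12320 fold changes, and after correction the 785th lowest. The Plod2 transcript has a GC content of 43.1%, the lowest of the 10 genes, and the fitted GC and length trend alone amounted to -0.995 on the log2 scale for such a transcript. The value ranged from -1.91 to -1.76 with 1 library left out, and from -1.002 to -0.743 with 1 library left out and the correction. In these bulk libraries, fewer cells with the transcript and less transcript per cell cannot be told apart.

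Plod1, which acts mainly on lysines of the helical part (chromosome 4, 147909753 to 147936767, minus strand), stood at 130.6 and 91.5 CPM in non-extravasated and 155.4 and 160.2 CPM in extravasated libraries. Both extravasated values lay above both others, although the non-extravasated libraries differed from each other by 0.51 on the log2 scale. It rose by a log2 fold change of 0.51 ± 0.177 (SE; adjusted p = 0.0495, edgeR). Plod3, which also carries glycosyltransferase activity (chromosome 5, 136987019 to 136996648, plus strand), stood at 44.9 and 51.5 CPM against 62.1 and 73.3 CPM. Its groups did not overlap either, and it rose by 0.49 ± 0.152 (adjusted p = 0.0326). After correction neither was called, with 0.15 (adjusted p = 0.596, edgeR) for Plod1 and 0.09 (adjusted p = 0.662) for Plod3. The corrected levels of each gene overlapped between the groups. For Plod1 the corrected value was 0.44 without not_extravasated_1 and -0.087 without not_extravasated_2. The Plod1 call was also lost without not_extravasated_2 (0.28), extravasated_1 or extravasated_2, and the Plod3 call without not_extravasated_1 or extravasated_2. Exons of Plod3 share 529 bases with Znhit1 on the opposite strand, whose counts were 436 and 679 in non-extravasated and 742 and 1210 in extravasated libraries. Since the strand setting of the counting is not given in the sources used here, the Plod3 value is uncertain.

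**Figure D1:**
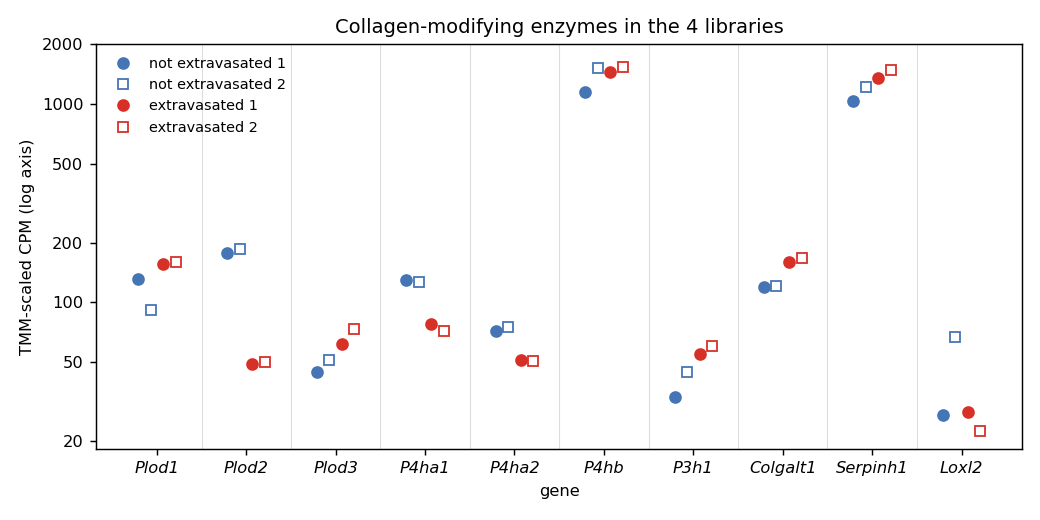
TMM-scaled CPM (vertical log axis) of the 10 genes (horizontal axis) in each of the 4 libraries, blue for not extravasated and red for extravasated, with circles for replicate 1 and squares for replicate 2. Plod2, P4ha1 and P4ha2 lie lower in both extravasated libraries, and the values of Loxl2 and P4hb overlap between the groups.

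Within the lysyl hydroxylase family, the leading transcript per unit of length differed between the groups. Levels were divided by the length of the transcript (CPM per kilobase) and each gene's share of the 3-gene sum was taken within a library. Plod2 made up 47.5% and 53.7% of the sum in non-extravasated libraries and 16.7% and 16.1% in extravasated ones. Plod1 made up 39.2% and 29.7% against 59.7% and 57.8%, and Plod3 13.3% and 16.5% against 23.6% and 26.1%. Plod2 was thus the largest of the 3 in both non-extravasated libraries, and Plod1 in both extravasated ones. The sum itself was 102.8 and 94.9 CPM per kilobase in non-extravasated and 80.3 and 85.5 in extravasated libraries. With GC and length correction, the share of Plod2 was 34.4% and 43.7% against 23.3% and 24.6%, and Plod1 was then the largest in not_extravasated_1 as well, with 48.8%. These shares contain the gene chosen for its fall and are given without a test.

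**Figure D2:**
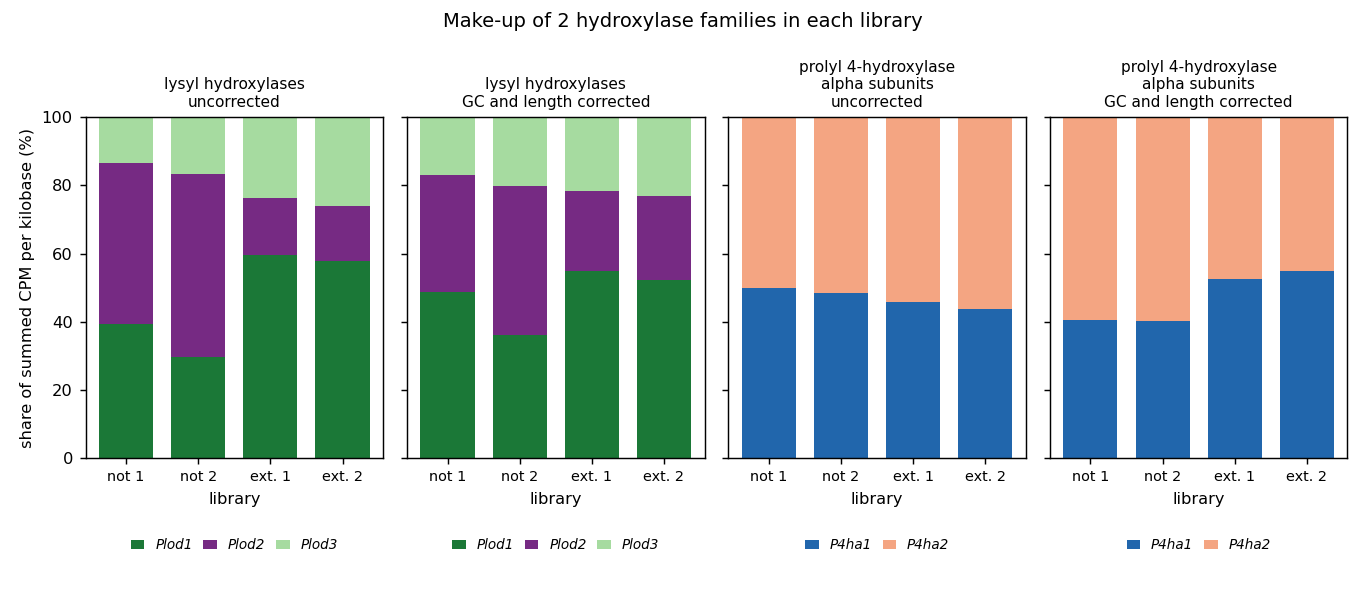
Share of each gene (vertical axis, percent) in the summed CPM per kilobase of its family in each library (horizontal axis: not 1 and not 2 for non-extravasated, ext. 1 and ext. 2 for extravasated), for 3 lysyl hydroxylases and 2 prolyl 4-hydroxylase alpha subunits, without and with GC and length correction. The Plod2 part is smaller in the extravasated libraries on both scales, while the P4ha1 part is smaller there without and larger with the correction.

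Both expressed alpha subunits of prolyl 4-hydroxylase, which carry the catalytic site of the enzyme, fell in extravasated cells, and only the fall of P4ha2 was called after correction. P4ha1 (chromosome 10, 59323296 to 59373304, plus strand) stood at 129.8 and 127.1 CPM in non-extravasated and 78.3 and 71.9 CPM in extravasated libraries. Its log2 fold change was -0.77 ± 0.125 (SE; adjusted p = 0.00312, edgeR). The call held without each library in turn. After correction it was -0.07 ± 0.113 (adjusted p = 0.703), with a transcript GC content of 45.7%.

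P4ha2 (chromosome 11, 54100095 to 54131665, plus strand) stood at 72.1 and 75.1 CPM in non-extravasated and 51.3 and 50.8 CPM in extravasated libraries. The 4 values formed a pair per group with a gap between the pairs. The log2 fold change was -0.53 ± 0.129 (SE; adjusted p = 0.0138, edgeR). Unlike for P4ha1, the correction moved it away from 0, to -0.85 ± 0.118 (adjusted p = 0.00741), and to -0.90 (adjusted p = 0.00675) with the longest transcript. The P4ha2 transcript has a GC content of 53.9% and the fitted trend for it was 0.33, on the rising side. The corrected call was lost without extravasated_1 (-0.87, adjusted p = 0.0764) and without extravasated_2 (-0.81, adjusted p = 0.125), as was the uncorrected one. P4ha3, a further alpha subunit gene, had no read in any library, which allows up to 0.158 to 0.260 CPM (3 counts per library, counting error only).

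P4hb, the beta subunit and also a protein disulfide isomerase in its own right (chromosome 11, 120560298 to 120573253, minus strand), stood at 1150 and 1509 CPM in non-extravasated and 1443 and 1527 CPM in extravasated libraries. The groups overlapped. Its log2 fold change of 0.16 ± 0.146 did not pass the test (adjusted p = 0.400), nor did the corrected value of -0.12 (adjusted p = 0.606). It was called only without not_extravasated_2, with 0.37. Per kilobase, P4hb exceeded the 2 alpha subunits together 6.24- and 8.10-fold in non-extravasated and 11.9- and 13.2-fold in extravasated libraries. With correction these ratios were 7.31 and 9.23 against 10.52 and 10.80. The summed alpha subunits stood at 64.4 and 65.1 CPM per kilobase in the former and 42.3 and 40.6 in the latter.

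**Figure D3:**
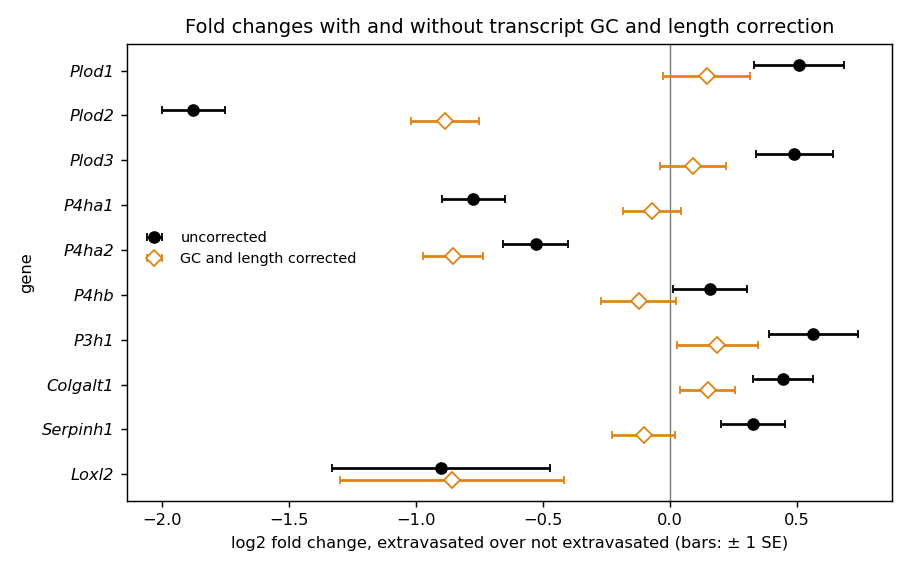
Log2 fold change of extravasated over non-extravasated libraries (horizontal axis, bars ± 1 SE from edgeR) for the 10 genes (vertical axis), without (black) and with (orange) GC and length correction. Plod2, P4ha2 and Loxl2 lie near -0.9 after correction, and the other 7 genes between -0.12 and 0.19. Plod2 was chosen for its fall, so its bar is not to be read as a test.

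The prolyl 3-hydroxylase and the galactosyltransferase rose before correction. P3h1, which forms a complex with CRTAP and cyclophilin B (chromosome 4, 119232915 to 119248975, plus strand), stood at 33.2 and 44.6 CPM in non-extravasated and 55.0 and 60.3 CPM in extravasated libraries. It rose by a log2 fold change of 0.57 ± 0.175 (SE; adjusted p = 0.0322, edgeR). Colgalt1, which adds galactose to hydroxylysine (chromosome 8, 71610998 to 71624911, plus strand), stood at 119.3 and 121.6 CPM against 160.7 and 167.4 CPM. It rose by 0.45 ± 0.119 (adjusted p = 0.0192). Before correction neither gene's groups overlapped. With correction the P3h1 levels overlapped (37.9 and 50.7 CPM in non-extravasated against 49.4 and 51.7 CPM in extravasated libraries), and the Colgalt1 levels did not. Neither gene was called after correction (edgeR; 0.19, adjusted p = 0.459, for P3h1 and 0.15, adjusted p = 0.391, for Colgalt1). The P3h1 call was lost without not_extravasated_1, extravasated_1 or extravasated_2, and the Colgalt1 call without extravasated_2. Colgalt1 shares 495 exonic bases with Unc13a on the opposite strand, which had 20 to 77 counts.

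Serpinh1, the collagen-specific chaperone HSP47 (chromosome 7, 99345376 to 99353239, minus strand), stood at 1031 and 1219 CPM in non-extravasated and 1350 and 1474 CPM in extravasated libraries. These groups did not overlap, but the corrected levels did (1198 and 1413 CPM in non-extravasated against 1199 and 1233 CPM in extravasated libraries). The log2 fold change of 0.33 ± 0.125 missed the threshold (adjusted p = 0.0646, edgeR). It passed without not_extravasated_2 (0.46), without a filter on low counts and with a term for the title suffix, and the corrected value was -0.10 (adjusted p = 0.608).

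Loxl2, a lysyl oxidase that forms cross-links outside the cell (chromosome 14, 69609068 to 69695834, plus strand), stood at 27.1 and 67.0 CPM in non-extravasated and 28.1 and 22.6 CPM in extravasated libraries. The value in not_extravasated_2 stood alone above the other 3, and the groups overlapped. The log2 fold change of -0.90 ± 0.429 was not called (adjusted p = 0.143, edgeR), nor was the corrected value of -0.86 (adjusted p = 0.248). The value was -0.09 without not_extravasated_2 and -1.41 without not_extravasated_1, where it was called. DESeq2 also called it, with -0.88 (adjusted p = 0.0359), as did edgeR with a term for the title suffix, with -0.77 (adjusted p = 0.00728).

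Of the 9 genes other than Plod2, 2 fell and 4 rose, against 25.9% and 19.1% of all genes tested, and after correction 1 fell and 0 rose (edgeR; also 0 at an unadjusted p under 0.05), against 5.80% and 8.24%. DESeq2, run without the correction, called 3 lower and 4 higher, against 2980 lower and 2229 higher of the 12320 genes tested. Fewer members were called without extravasated_1 or without extravasated_2, before and after correction, and so were fewer of all genes tested. Before correction fewer members also rose without not_extravasated_1, while more of all genes did. After correction more members were called without not_extravasated_1, and so were more of all genes. The median log2 fold change of the 9 genes was 0.33 before and -0.07 after correction, against -0.02 and 0.04 over all genes tested. The 4 genes that rose have transcript GC contents of 54.5% to 57.8%, and the 2 that fell of 45.7% and 53.9%. The median over nuclear coding genes was 50.4%.

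**Figure D4:**
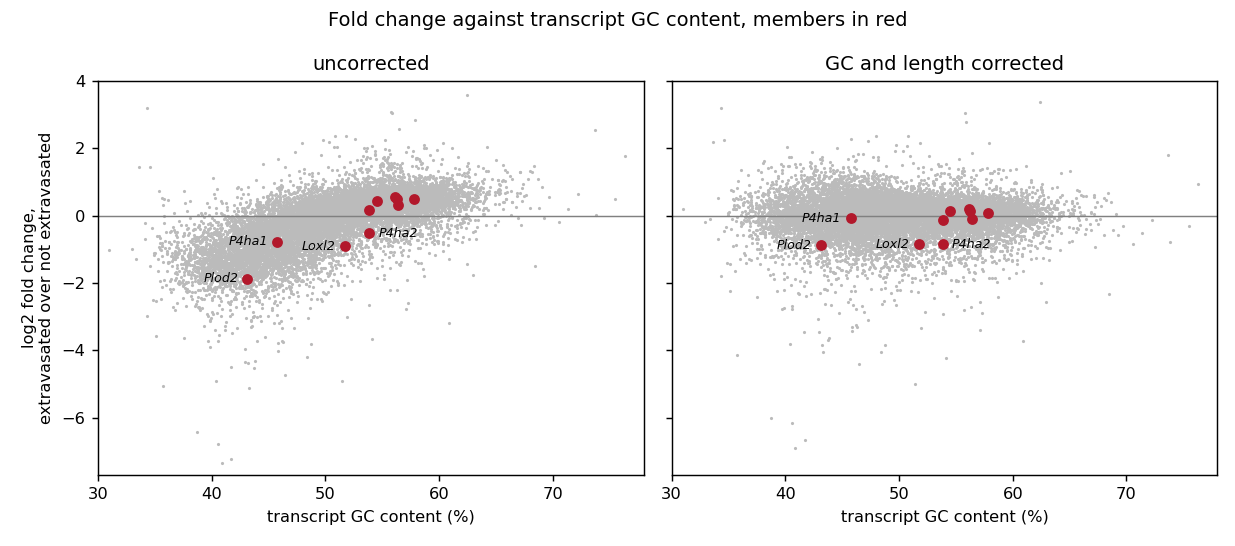
Log2 fold change of extravasated over non-extravasated libraries (vertical axis) against transcript GC content in percent (horizontal axis) for the tested genes with a known transcript (grey) and the 10 members (red), without and with GC and length correction. Plod2, with 43.1% GC, lies in the falling low-GC part on the left, and Plod2, P4ha2 and Loxl2 lie below the other members after correction.

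Per kilobase, Serpinh1 and P4hb stood far above the other 8 genes in every library. In non-extravasated libraries Serpinh1 (453.5 and 536.0 CPM per kilobase) overlapped with P4hb (402.1 and 527.3), and Plod2 followed in place 3 with 48.9 and 51.0 before correction. Below Plod2, Colgalt1 (37.2 and 37.9), P4ha2 (32.3 and 33.7) and P4ha1 (31.4 and 32.1) all lay within the range of Plod1 (28.2 to 40.3). Plod3, P3h1 and Loxl2 came last, with Plod3 (13.7 to 15.7) overlapping P3h1 (11.2 to 14.97) and P3h1 overlapping Loxl2 (5.09 to 12.6). In extravasated libraries Plod2 was in place 9, with 13.4 and 13.8 CPM per kilobase. There Serpinh1 (593.8 and 648.2) was above P4hb (504.5 and 533.8), followed by Colgalt1 (50.1 and 52.2) and Plod1 (47.9 and 49.4). P4ha2 (22.8 and 23.0) lay above Plod3 (18.9 and 22.4), P3h1 (18.5 and 20.3) and P4ha1 (17.8 and 19.4), of which each overlapped the next. Loxl2 was last with 5.28 and 4.26. These places hold without GC and length correction. With it, Plod2 was in place 6 in non-extravasated libraries (32.3 and 38.7 CPM per kilobase), after Colgalt1 (41.2 and 42.1), Plod1 and P4ha2, with a range that overlapped those of Plod1 and P4ha2. In extravasated libraries it was then in place 7 (18.3 and 20.1), overlapping P4ha2 above it (20.87 and 20.02) and Plod3 below it (17.1 and 18.8).

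Other collagen pathway genes were read from lists of 123 symbols, of which 86 were tested. Of these, 22 fell and 13 rose (edgeR, adjusted over all genes), or 25.6% and 15.1% against 25.9% and 19.1% of all genes tested. After correction 8 fell and 4 rose, or 9.30% and 4.65% against 5.80% and 8.24%, with a median log2 fold change of -0.09 before and -0.06 after it. Fewer of them were called without extravasated_1 or without extravasated_2, before and after correction, and so were fewer of all genes tested. After correction, more of them were called without not_extravasated_1 or without not_extravasated_2, and so were more of all genes tested. Nothing particular to the lists is read from these counts.

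Among the 43 collagen chain genes, the substrates of the enzymes above, 19 were tested, 1 fell and 3 rose. These are 5.26% and 15.8%, against 25.9% and 19.1% of all genes tested. The median was 0.09 against -0.02 over all genes. The fibrillar chain Col5a1 had the highest mean level, with 66.7 and 89.3 CPM in non-extravasated and 85.2 and 97.5 CPM in extravasated libraries. Its groups overlapped (log2 fold change 0.23, adjusted p = 0.308). Of the basement membrane chains, Col4a2 rose by 0.46 (adjusted p = 0.0331), from 37.2 and 36.3 to 47.6 and 53.7 CPM, while Col4a1 (0.09, adjusted p = 0.696) and Col4a5 (-0.16, adjusted p = 0.520) did not pass. Col16a1, a fibril-associated chain, rose by 0.40 (adjusted p = 0.0429). After correction Col4a2 (0.26, adjusted p = 0.193) and Col16a1 (0.09, adjusted p = 0.612) were not called. Of the 19 chains, 2 then fell and 0 rose (edgeR; 2 rose at an unadjusted p under 0.05). Over all genes tested, 5.80% fell and 8.24% rose after correction. The corrected median of the chains was 0.006, against 0.04 over all genes. DESeq2, run without the correction, called 0 chains lower and 1 higher. Outside the rule for names, and under 10 CPM, Col1a1 rose by 0.83 and Col9a3 fell by 1.41 before correction, and Col9a3 (-1.85) and Col20a1 (-0.91) fell after it. No read was found in any library for 9 of the 43 chains.

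Of 11 further modifying and cross-linking genes, 5 were tested, 2 rose and 0 fell (edgeR; 0 also at an unadjusted p under 0.05 and by DESeq2), with a median of 0.32. Among all genes tested, 19.1% rose and 25.9% fell, or 8.24% and 5.80% after correction. With 5 genes, nothing particular to the list is read from these counts. Crtap, the partner of P3h1, rose by 0.52 (adjusted p = 0.0389), and Loxl3, a lysyl oxidase, rose by 0.44 (adjusted p = 0.0325). After correction 0 of the 5 were called in either direction (edgeR; 2 lower and 0 higher at an unadjusted p under 0.05), with Crtap at 0.01 and Loxl3 at 0.28. Lox, Loxl1, P4ha3 and P3h4 had no read in any library. Loxl2 and Loxl3 together stood at 27.0 and 31.6 CPM per kilobase in non-extravasated and 31.6 and 33.7 in extravasated libraries, and Loxl2 made up 18.9% and 39.8% of that sum against 16.7% and 12.6%.

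Of 26 tested genes of procollagen folding and export, 10 fell and 2 rose before correction, or 38.5% and 7.69% against 25.9% and 19.1% of all genes. After it 2 fell and 2 rose, or 7.69% in each direction against 5.80% and 8.24%. Their median was -0.35 before and 0.01 after correction, against -0.02 and 0.04 over all genes. Mia3 (TANGO1), which loads procollagen into transport carriers, stood at 85.2 and 79.2 CPM in non-extravasated and 34.3 and 32.8 CPM in extravasated libraries. It fell by 1.29 on the log2 scale (adjusted p = 0.00087, edgeR) and was also called after correction with -0.68 (adjusted p = 0.015). This corrected call was lost without extravasated_1 and without extravasated_2. So were the corrected calls of all other genes in the lists of collagen pathway genes. Mia2, its partner at the exit sites, fell by 1.15 (adjusted p = 0.00121). Sec23a, a COPII coat subunit, fell by 1.47 (adjusted p = 0.00087), and Pdia3, a disulfide isomerase, fell by 0.73 (adjusted p = 0.00361). These 3 were not called after correction (-0.33, -0.38 and -0.28), although Mia2 was called with the longest transcript (-0.51, adjusted p = 0.0302). Sec13, a further COPII subunit, rose by 0.44 (adjusted p = 0.0221), and Ppib, which encodes cyclophilin B, rose by 0.37 (adjusted p = 0.0447), with corrected values of 0.12 and -0.01 that were not called. The other calls after correction, outside the rule for names, were Creb3l1 (-0.74) among those that fell and Sar1a (0.69) and Sar1b (0.59) among those that rose.

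The procollagen processing list holds enzymes that cut the ends of the chains and other genes assigned to this step. Of 9 listed, 4 were tested, 3 rose and 0 fell (edgeR; 0 also at an unadjusted p under 0.05 and by DESeq2), with a median of 0.47. Over all genes tested, 19.1% rose and 25.9% fell, or 8.24% and 5.80% after correction. With 4 genes, nothing particular to the list is read from these counts. Pcolce, an enhancer of the C-proteinase, rose by 0.48 (adjusted p = 0.0239), Furin by 0.46 (adjusted p = 0.0254) and Adamts14, an N-proteinase, by 0.79 (adjusted p = 0.0264). After correction 0 of the 4 were called (edgeR; 1 higher at an unadjusted p under 0.05), with values of -0.06, 0.11 and 0.51, and a list median of 0.04.

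**Figure D5:**
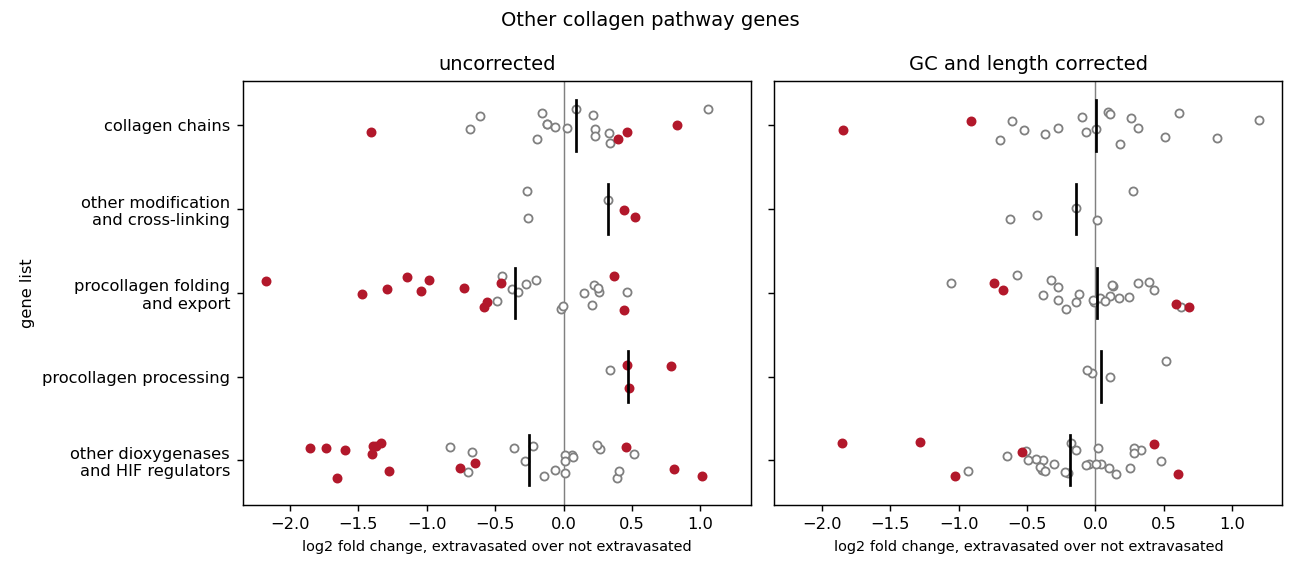
Log2 fold change of extravasated over non-extravasated libraries (horizontal axis) for the tested genes of 5 lists (vertical axis), without and with GC and length correction, with filled red points for an adjusted p under 0.05 and a black bar for the median. The red points to the left in the folding and export list and in the dioxygenase list, 10 and 11 without correction, number 2 and 4 with it.

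The collagen hydroxylases belong to the dioxygenases that use 2-oxoglutarate, as do the enzymes that mark hypoxia-inducible factors for degradation. Of 33 other genes of this class and HIF regulators, 32 were tested. Before correction 11 fell and 3 rose, or 34.4% and 9.38% against 25.9% and 19.1% of all genes, and after it 4 fell and 2 rose, or 12.5% and 6.25% against 5.80% and 8.24%. The medians were -0.25 and -0.19, against -0.02 and 0.04 over all genes. Hif1a, the oxygen-regulated subunit of HIF-1, stood at 329.0 and 310.6 CPM in non-extravasated and 101.5 and 109.7 CPM in extravasated libraries. It fell by 1.60 (adjusted p = 0.00072), and its corrected value of -0.37 was not called (adjusted p = 0.103). Kdm3a, a histone demethylase, fell by 1.34 (adjusted p = 0.00077) and after correction by 0.54 (adjusted p = 0.0277). Kdm5a and Kdm6a, also histone demethylases, fell by 1.65 and 1.73 (adjusted p = 0.00074 and 0.0016), and their corrected values of -0.18 and -0.49 were not called.

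Of the hydroxylases acting on HIF, Egln2 rose by 1.02 (adjusted p = 0.0022; corrected 0.48, adjusted p = 0.0525). Hif1an, which hydroxylates an asparagine of HIF, rose by 0.46 (adjusted p = 0.0256) and was also called after correction with 0.61 (adjusted p = 0.0188). The genes called lower after correction were Egln1 (-1.03), Epas1 (-1.28), Kdm3a and Tmlhe, and those called higher were Hif1an and Riox2 (0.43), the names outside the rule being chosen after their values were seen. With the longest transcript the Riox2 call was lost (0.37, adjusted p = 0.0743) and Fto was called higher (0.66, adjusted p = 0.0379, against 0.15 with the principal transcript). Tmlhe had no transcript entry and so received no correction.

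Over the 4 libraries, the genes whose levels deviated most like those of Plod2, among 8664 genes averaging 10 CPM or more, were Stxbp3, 9330182L06Rik, Acap2, Chd6 and Baz2b. Likeness was the root mean square distance between the deviations of log2 CPM from each gene's mean, which was 0.05 to 0.07 for these 5. Stxbp3, for example, stood at 25.4 and 24.8 CPM in non-extravasated and 6.59 and 6.48 CPM in extravasated libraries. The 5 genes lie on chromosomes 2, 3, 5 and 16 and their transcripts have GC contents of 41.0% to 48.0%. Their corrected log2 fold changes were -1.34 to -0.86, against -0.89 for Plod2. With 4 libraries in 2 groups, such a pattern amounts to a similar fold and close replicates.

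Around Plod2, 4 other tested genes lay within 1000000 bases on chromosome 9. Plscr4 (fell by 1.33, adjusted p = 0.00994; corrected -0.46, adjusted p = 0.300), a phospholipid scramblase, was called lower before correction only. Plscr1, of the same family, had 0.33 (adjusted p = 0.104) and was called higher after correction with 1.15 (adjusted p = 0.0055). Plscr2 and Gm38391 were not called on either scale. Gm38391 lies on the opposite strand, shares 346 exonic bases with Plod2 and had 6 to 15 counts, against 646 to 3215 for Plod2.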

How the data were processed

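RNA from 2 extravasated and 2 non-extravasated B16-F10 libraries was measured by stranded polyA sequencing, per the labels' protocols. The table deposited by the authors holds whole-number counts of reads for each gene, none of them scaled. The build GRCm38 and the tools bcl2fastq 2.18.0.12 and STAR 2.5.3a are listed per the submitters' processing notes, and the counter, annotation release, strand setting and filters are not given in the sources used here. Identifiers were matched to GENCODE M21 (53360 of 53465).

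Genes were tested with edgeR 4.0.16 (R 4.3.3; minimum count 10, minimum total 15, TMM, robust quasi-likelihood test, two-sided, Benjamini-Hochberg adjustment over all tested genes, threshold 0.05). SE was the fold change divided by the square root of F. The GC and length correction smoothed each library's deviations in log2 CPM (prior count 2) on GC content and log2 length of the APPRIS principal transcript (mgcv 1.9.3, basis 10) and entered edgeR as an offset, without mitochondrially encoded genes. Alternatives were RLE factors, DESeq2 1.42.0, no filter, the longest transcript, a term for the kind of title suffix, and leaving out each library. The code was tested on simulated data.

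Members, lists and alternatives were chosen with earlier results of these data known. Of each list, genes called with at least 10 CPM were named, at most 4 per direction by adjusted p, with the 5 highest collagen chains and the 5 genes most like Plod2. Genes around Plod2, family shares and the levels of overlapping genes were added after seeing the data.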

Additional observations from a re-analysis of the deposited data

How the results depend on the processing

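With GC and length correction, with the principal or the longest transcript, 1 of the 9 members other than Plod2 fell and 0 rose, and 8 or 9 other collagen pathway genes fell and 4 rose. There P4hb was -0.12 and -0.15 and Serpinh1 -0.10 and -0.13 on the log2 scale, against 0.16 and 0.33 before correction. The counts were within 1.5 times the reported ones under RLE factors, DESeq2, no filter and the title suffix term. With 1 library left out, with or without the correction, 0 to 3 members fell and 0 to 5 rose, and 0 to 25 other genes fell and 0 to 15 rose. Without extravasated_1 or extravasated_2, the corrected edgeR fits called 63 and 2 genes lower over the whole table. Over all fits without 1 library, P4hb ranged from -0.30 to 0.37, Serpinh1 from -0.20 to 0.48 and Plod1 from -0.087 to 0.79. Over the 14 alternatives, Plod2 lay between -1.91 and -0.74 and P4ha2 between -0.90 and -0.44. All of these fits use the libraries on which Plod2 was chosen for its fall, so its sign in them is no support for that fall. With 2 libraries a group, a fit without 1 library takes the spread of its group from the other group. The cause of the lost calls was not tested. The titles share a kind of suffix (C or another letter) across the groups, whose meaning the labels do not give. With it as an additive term 3 members fell and 5 rose, against 3533 and 2632 of the 12320 genes tested.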
